A study of Sus scrofa with 12 samples.

Results

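The comparison described here set blastocysts cryopreserved by the procedure titled vitrification II against fresh blastocysts that were not cryopreserved. Its members were chosen by the sample titles. They are the 3 libraries of vitrification II and the 3 libraries of fresh control, 6 of the 11 libraries with values, and the comparison runs over all genes. The embryos were pig (Sus scrofa) blastocysts from parthenogenetic activation, in which an unfertilised egg starts development without sperm, so every group carries a maternal genome only. The other 5 libraries belong to groups titled vitrification (2 with values) and vitrification I (3). They entered the fits for their spread and for 1 further contrast. Vitrification turns an embryo to a glass-like solid by very fast cooling in concentrated cryoprotectant. Liquid helium appears in the series title, but which procedure used it, how the vitrified groups differed, and how long embryos were cultured after warming are not given in the labels. The labels name the blastocyst as the source, while the protocol describes sorted single cells taken through Smart-Seq2, a method that amplifies polyadenylated RNA from minute inputs. Nothing states that the libraries came from separate cultures or embryo pools, so the spread behind the p-values is that of these libraries and may be technical.

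A blastocyst is a fluid-filled sphere. Its outer epithelium, the trophectoderm, is sealed by junctions and pumps the fluid in, and an inner cell mass gives rise to epiblast and hypoblast. The pig conceptus later signals its presence to the mother through estrogens and prostaglandins made by the trophectoderm. Cooling and warming expose the cells to osmotic stress and ice, and mitochondria, the cytoskeleton and the endoplasmic reticulum (ER) are commonly studied for damage.

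The values were FPKM, fragment numbers scaled to transcript length and library size, for 31781 gene identifiers. They come without counts, and the depth of the libraries is unknown. Trophectoderm markers were present in all 6 libraries: their summed level was 10877 to 16285 FPKM in fresh control and 14680 to 22899 in vitrification II, and 0 of 19 markers were at 0 in all 6. The keratin KRT8 alone held 6343, 10329 and 8634 FPKM in control 1, 2 and 3 and 10563, 18589 and 14708 in vitrification II 1, 2 and 3. Of 10 leukocyte and erythroid markers, PTPRC, CD3E and ALAS2 were at 0 in all 6 libraries, and the list summed to 2.03 to 20.4 FPKM in fresh control and 3.90 to 6.80 in vitrification II. Of 11 cumulus and granulosa cell markers, FSHR, HAS2, PTX3, AMH and NR5A1 were at 0 in all 6. That list summed to 61.5 to 109 FPKM in fresh control and 594 to 966 in vitrification II. Nearly all of these FPKM came from PTGS2 and FST, described below. The fibroblast list (8 markers) summed to 0.497 to 9.45 and 0.782 to 2.73 FPKM, and the maternal oocyte list (12 markers, 3 at 0 in all 6) to 8.19 to 8.47 and 4.06 to 19.6.

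The make-up of the libraries differed between the groups before any single gene was tested. The 13 protein genes of the mitochondrial genome held 39.9% ± 3.44 of the summed FPKM in fresh control (37.6% to 43.9%; SD, n = 3) and 19.6% ± 2.59 in vitrification II (16.9% to 22.1%). The groups did not overlap (two-sided exact permutation p = 0.1, the smallest that 3 against 3 libraries allow). The 50 most abundant genes of a library held 56.0% ± 0.798 against 37.8% ± 2.5 (exact p = 0.1). The number of genes reaching 1 FPKM was 7117 ± 426 (6761 to 7589) against 8865 ± 260 (8626 to 9141; exact p = 0.1). The number above 0 was 15605 ± 382 and 15827 ± 396 and overlapped (exact p = 0.5). In vitrification II a smaller part of the library lay in the most abundant transcripts and more genes reached 1 FPKM. In all, 607 genes were at 1 FPKM or more in all 3 vitrification II libraries and below 1 in all 3 control libraries, and 26 genes showed the reverse. Cytoplasmic ribosomal protein genes held 5.56% ± 0.939 and 6.61% ± 0.483, with overlapping libraries (exact p = 0.2). Across the genes tested, Pearson's r was 0.924 to 0.978 between control libraries, 0.933 to 0.943 between vitrification II libraries and 0.873 to 0.908 between the groups.

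**Figure D1:**
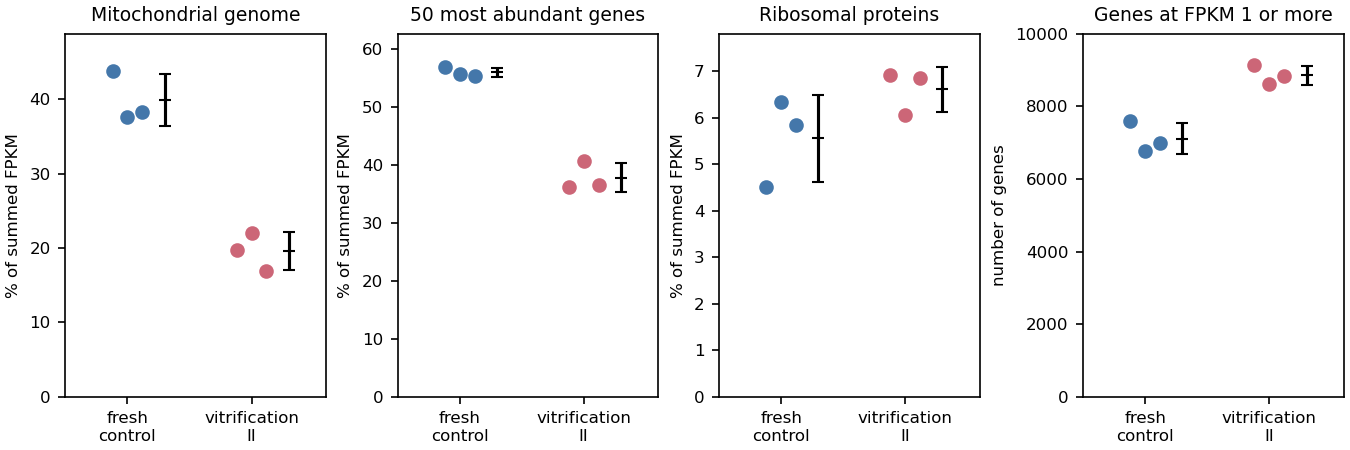
Share of summed FPKM in the mitochondrial protein genes, in the 50 most abundant genes and in cytoplasmic ribosomal protein genes (%), and number of genes at FPKM 1 or more, per library. Points are libraries in the order 1 to 3, and the bar beside them is the mean ± SD (n = 3). Fresh control and vitrification II do not overlap except in the ribosomal protein share.

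Most genes that passed the test were higher in vitrification II, a split that depended on how libraries were scaled. A gene was called when limma's moderated test gave an adjusted p under 0.05 on log2(FPKM + 1), over the 9411 genes that reached 1 FPKM in 3 or more libraries. Of these, 2422 were called (25.7%), 2319 higher (24.6%) and 103 lower (1.09%) in vitrification II. The libraries of the groups did not overlap for 4458 genes (47.4%). The median of all genes lay 0.62 log2 higher in vitrification II, and 81.8% of genes lay above 0. With each library set to one total of FPKM from all genes but the mitochondrial ones, the calls were 1191 higher and 115 lower (91.2% higher). Shifting each library to one common median (median centring) gave 341 higher (3.62%) and 662 lower (7.03%), so that 34.0% of calls were higher. Quantile normalization, which gives every library the same distribution of values, left 387 higher and 289 lower (57.2% higher). Under all 4 scalings 299 genes were higher (3.18%) and 73 lower (0.776%), and 292 and 19 of these were also called in each of 11 fits without 1 library. The number of calls was 1017 without control 2, 1236 without control 3, and 1616, 1609 and 1395 without vitrification II 1, 2 and 3.

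The direction of the calls varied with a gene's level. Among 2656 genes with a mean of 5 to 20 FPKM over the 6 libraries, the median difference was 0.83 log2, and 842 were higher and 19 lower. Among 557 genes of 100 to 1000 FPKM the median was 0.01, with 46 higher and 26 lower. Of the 59 genes at 1000 FPKM or more, 0 were higher and 14 (23.7%) lower, and their median was -0.28. After quantile normalization the same 59 genes gave 3 higher and 3 lower. Because of the overall shift, changes of single genes below are given relative to the median of all genes, as log2 ± SE. The test and its adjusted p rest on the fitted change, which is 0.62 higher. Medians of gene lists are fitted changes, not relative ones, and are to be read beside the 0.62 of all genes. Library values are listed in the order 1 to 3. The largest rises and falls were drawn from genes whose libraries did not overlap, so lack of overlap adds no support for them. Of all genes tested, 47.4% had non-overlapping groups.

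**Figure D2:**
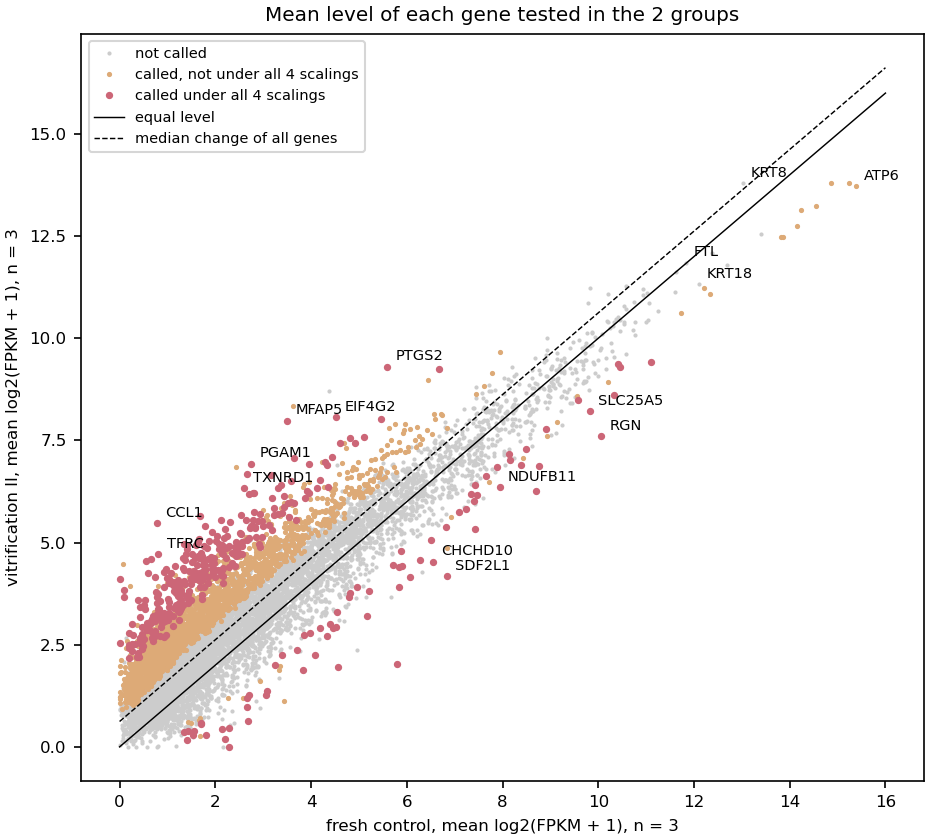
Mean log2(FPKM + 1) of each of the 9411 genes tested in fresh control (horizontal) and vitrification II (vertical), n = 3 libraries each. Grey genes were not called, tan genes were called without scaling but not under all 4 scalings, and red genes were called under all 4. Most of the cloud lies above the line of equal level, while the most abundant genes, with ATP6 at the right edge, lie below it.

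Single genes with large rises included the secreted proteins CCL1, KITLG and MFAP5. CCL1 (ENSSSCG00000017720), a chemokine that attracts leukocytes, stood at 2.63, 0.203 and 0.171 FPKM in the control libraries and at 22.7, 46.4 and 76.5 FPKM in vitrification II. The lowest vitrification II library lay well above the highest control library, and CCL1 rose by 4.06 ± 0.52 log2 (adjusted p = 0.000165). KITLG, the ligand of the receptor KIT, stood at 7.46, 0.773 and 1.75 FPKM in the control libraries and at 31.1, 28.8 and 78.1 FPKM in vitrification II. Control 1 was the highest of its group for both genes, but the groups did not overlap, and KITLG rose by 2.99 ± 0.53 log2 (adjusted p = 0.000593). MFAP5, a protein of extracellular microfibrils, stood at 8.9, 21.8 and 5.49 FPKM in the control libraries and at 124, 118 and 1086 FPKM in vitrification II. It rose by 3.85 ± 0.79 log2 (adjusted p = 0.00161), with vitrification II 3 far above the other 2 libraries of its group. All 3 kept their calls under each of the 21 alternatives.

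HSD17B1 and PTGS2, enzymes of conceptus signalling, also had large rises. HSD17B1 (ENSSSCG00000035147), which converts estrone to estradiol, stood at 0.783, 0.213 and 0.432 FPKM in the control libraries and at 15.8, 23.7 and 30.5 FPKM in vitrification II. It was under 1 FPKM in every control library and above 15 in every vitrification II library, and rose by 3.39 ± 0.34 log2 (adjusted p = 3.64e-05). PTGS2 (ENSSSCG00000015579), the inducible cyclooxygenase that starts prostaglandin synthesis, stood at 18.1, 56.4 and 100.3 FPKM in the control libraries and at 511, 560.4 and 885 FPKM in vitrification II. It rose by 3.10 ± 0.55 log2 (adjusted p = 0.000588), and the highest control library lay below the lowest vitrification II library. CYP17A1, which makes androgen precursors, stood at 0.25, 0.276 and 0 FPKM in the control libraries and at 0.828, 17.2 and 106 FPKM in vitrification II. Its 3 vitrification II libraries were far apart, and its call (adjusted p = 0.0305) was lost under 8 of 21 alternatives, median centring among them (0.14). Without control 1 the CYP17A1 call was kept, close to the threshold (0.0467). The list of steroid, prostaglandin and plasminogen genes had 13 genes tested, of which 7 were higher (53.9%, against 24.6% of all genes) and 0 lower. CYP19A1, HSD3B1, STS, PGFS and IL1B2 of that list had no identifier with their symbol and were not tested. The median of the genes tested was 1.52 log2 against 0.62 for all genes, and 4 were higher under all 4 scalings. FST, follistatin, which binds activin, stood at 57.4, 4.02 and 9.07 FPKM in the control libraries and at 82.7, 80.2 and 80.6 FPKM in vitrification II. Control 1 lay close to the vitrification II libraries for FST, whose call (adjusted p = 0.0107) ended without control 2 (0.0588) and after median centring (0.0846). PTGS2 and FST are also markers of cumulus and granulosa cells, and the part of such cells in their rise was not tested. Whether a library held a single cell or many is not clear from the labels. In a library of many cells a change in the share of a cell type and a change of RNA per cell cannot be told apart.

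Many genes in the list of immediate early and other stress-response genes were higher. Immediate early genes respond within minutes to growth factors and stress. Of the 27 genes of the list tested, 16 were higher (59.3%, against 24.6% of all genes) and 0 lower, with a median of 1.68 log2 against 0.62. After median centring 7 were higher, where 3.62% of all genes were, and 0 lower. The count was 9 without control 2 and 10 without control 3 or vitrification II 3. KLF10, a zinc finger repressor induced by TGF-beta, stood at 6.51, 4.06 and 7.5 FPKM in the control libraries and at 69.3, 82.8 and 69.9 FPKM in vitrification II and rose by 2.83 ± 0.40 log2 (adjusted p = 0.000217). DUSP1, a phosphatase that switches off MAP kinases, stood at 9.61, 4.12 and 5.31 FPKM in the control libraries and at 68.5, 58.4 and 96.9 FPKM in vitrification II and rose by 2.78 ± 0.41 log2 (adjusted p = 0.000239). For both genes the 3 vitrification II libraries lay close together and far above control. IER3, an early gene that modulates cell survival, stood at 1.96, 0.16 and 0.364 FPKM in the control libraries and at 15, 7.93 and 39.3 FPKM in vitrification II and rose by 2.80 ± 0.57 log2 (adjusted p = 0.0011). TXNIP, an arrestin-like protein that binds thioredoxin and limits glucose uptake, stood at 2.06, 2.56 and 2.63 FPKM in the control libraries and at 30, 20.1 and 40.1 FPKM in vitrification II and rose by 2.51 ± 0.38 log2 (adjusted p = 0.000239). PPP1R15A, which reverses the arrest of translation under stress, stood at 18.9, 5.9 and 6.84 FPKM in the control libraries and at 24.2, 62.9 and 76.3 FPKM in vitrification II. Its call (adjusted p = 0.00776) ended after median centring (0.0974) and quantile normalization (0.0882).

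The lists of iron and glycolysis genes had shares called higher near that of all genes, and the antioxidant list a smaller one, but each held at least one gene with a large rise. TXNRD1 (ENSSSCG00000000843), the reductase that keeps cytosolic thioredoxin active, stood at 9.03, 2.84 and 4.84 FPKM in the control libraries and at 71.8, 75 and 93.1 FPKM in vitrification II and rose by 3.10 ± 0.47 log2 (adjusted p = 0.000266). TFRC (ENSSSCG00000011848), the transferrin receptor that brings iron into the cell, stood at 1.13, 0.302 and 0.936 FPKM in the control libraries and at 25.9, 27.6 and 23 FPKM in vitrification II. The vitrification II libraries spanned a narrow range, and TFRC rose by 3.29 ± 0.40 log2 (adjusted p = 0.000101). ACO1, the aconitase that turns into an iron-responsive RNA-binding protein when iron is scarce, stood at 0.887, 0.628 and 1.15 FPKM in the control libraries and at 6.17, 6.59 and 14.7 FPKM in vitrification II and rose by 1.72 ± 0.41 log2 (adjusted p = 0.0015). Ferritin light chain FTL, which stores iron, stood at 3674, 3739.8 and 3499 FPKM in the control libraries and at 2707, 4258 and 4375 FPKM in vitrification II. The groups overlapped for FTL, with a relative change of -0.60 ± 0.48 (adjusted p = 0.976). Of 18 iron genes tested, 5 were higher (27.8%, near the 24.6% of all genes) and 1 lower (2 higher and 3 lower after median centring), and the number higher was 2 without control 3 and 3 without control 2 or vitrification II 3. The list's median was 0.57, close to that of all genes, and turned to -0.31 after median centring.

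PGAM1 (ENSSSCG00000010517), the glycolytic phosphoglycerate mutase, stood at 7, 4.06 and 6.47 FPKM in the control libraries and at 97.6, 171 and 106 FPKM in vitrification II and rose by 3.56 ± 0.38 log2 (adjusted p = 3.64e-05). HK2, the hexokinase that traps glucose in the cell, stood at 1.45, 0.515 and 1.18 FPKM in the control libraries and at 9.1, 13.4 and 11.9 FPKM in vitrification II and rose by 2.00 ± 0.36 log2 (adjusted p = 0.000424). LDHB, the lactate dehydrogenase subunit typical of oxidative tissue, stood at 22.2, 24.8 and 16.7 FPKM in the control libraries and at 12.4, 4.36 and 5.01 FPKM in vitrification II. It fell by 2.16 ± 0.40 log2 (adjusted p = 0.0125), and this call ended without control 2 (0.06), vitrification II 2 (0.0579) or vitrification II 3 (0.0547). LDHA, the other main subunit, stood at 59.1, 23.3 and 25.4 FPKM in the control libraries and at 49.8, 75 and 93.2 FPKM in vitrification II and GAPDH, of the same pathway, at 228, 789 and 329.99 FPKM in the control libraries and at 234, 76.2 and 248 FPKM in vitrification II. Neither passed the test (adjusted p = 0.222 and 0.163), and the libraries overlapped for both. Of 16 glycolysis genes, 4 were higher (25%, near the 24.6% of all genes) and 1 lower, with 2 higher without control 2 or vitrification II 3 and 0 lower without control 2, vitrification II 2 or vitrification II 3. Their median of 0.65 log2 turned to -0.23 after median centring. HIF1A, the oxygen-regulated transcription factor, stood at 5.06, 3.72 and 4.25 FPKM in the control libraries and at 24.5, 22.2 and 42.3 FPKM in vitrification II and rose by 1.85 ± 0.40 log2 (adjusted p = 0.000981).

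**Figure D3:**
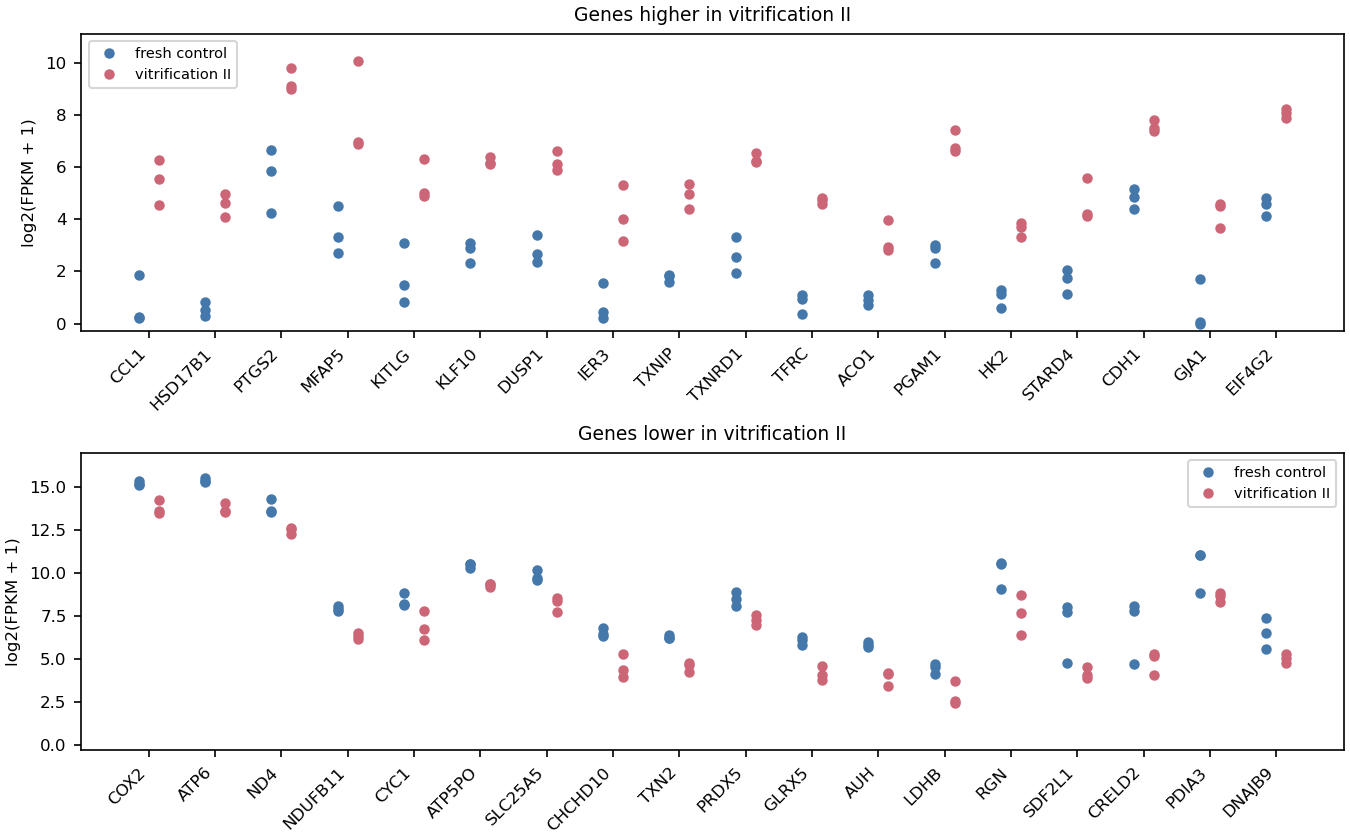
log2(FPKM + 1) of 18 genes higher (top) and 18 lower (bottom) in vitrification II, chosen from the gene groups in the text after their values were seen. Blue points are the 3 fresh control libraries and red points the 3 vitrification II libraries. The groups do not overlap for the genes on top, while control 1 lies near vitrification II for CRELD2 and PDIA3 at the lower right.

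Cholesterol and fatty acid synthesis genes held further rises, with vitrification II 3 highest for several. STARD4, a cytosolic sterol carrier, stood at 2.39, 1.21 and 3.15 FPKM in the control libraries and at 16.3, 17.2 and 47 FPKM in vitrification II and rose by 2.35 ± 0.56 log2 (adjusted p = 0.00233). INSIG1, which holds the sterol sensor in the ER, stood at 7.39, 6.26 and 7.31 FPKM in the control libraries and at 18.9, 62 and 134 FPKM in vitrification II, and HMGCS1, a synthase early in the cholesterol pathway, at 6.23, 6.78 and 13.6 FPKM in the control libraries and at 42.6, 32 and 134 FPKM in vitrification II. They rose by 2.17 ± 0.53 log2 (adjusted p = 0.00237) and 2.01 ± 0.53 log2 (adjusted p = 0.0035), and the INSIG1 call ended after quantile normalization (0.0519). Of 24 cholesterol genes, 10 were higher (41.7%, against 24.6% of all genes) and 0 lower (4 higher after median centring), with a median of 1.12 log2. The number higher was 4 without control 2 and 5 without control 1 or vitrification II 3. ACLY, which makes cytosolic acetyl-CoA for lipid synthesis, stood at 19.2, 12.6 and 26.5 FPKM in the control libraries and at 80.3, 137 and 179 FPKM in vitrification II and rose by 2.07 ± 0.47 log2 (adjusted p = 0.0016). In the list of fatty acid synthesis and lipid storage 6 of 17 were higher (35.3%) and 0 lower. After median centring 2 were higher and 2 lower, and after quantile normalization 2 were higher and 1 lower. The number higher without scaling was 2 without vitrification II 3 and 3 without control 2.

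Epithelial junction and attachment genes gave calls in 1 direction without scaling. CDH1, E-cadherin, which joins neighbouring epithelial cells, stood at 20.3, 27.7 and 35.1 FPKM in the control libraries and at 222, 181 and 166 FPKM in vitrification II and rose by 2.13 ± 0.40 log2 (adjusted p = 0.000556). DSC2, a desmosomal cadherin, stood at 16.2, 22.5 and 24.2 FPKM in the control libraries and at 108, 152 and 148 FPKM in vitrification II and rose by 2.02 ± 0.35 log2 (adjusted p = 0.000361). GJA1, the gap junction protein connexin 43, stood at 2.25, 0.0398 and 0 FPKM in the control libraries and at 22.9, 11.7 and 21.5 FPKM in vitrification II and rose by 3.04 ± 0.57 log2 (adjusted p = 0.000831). No library of one group reached the other for these 3 genes, as for 47.4% of all genes. CTNNB1, beta-catenin, which links cadherins to actin, stood at 20.6, 6.91 and 21.1 FPKM in the control libraries and at 84.3, 60.7 and 75.9 FPKM in vitrification II and rose by 1.63 ± 0.43 log2 (adjusted p = 0.00245). Of 28 junction genes, 17 were higher (60.7%, against 24.6% of all genes) and 0 lower, with a median of 1.27 log2. After median centring 6 were higher and 2 lower, and the count of higher genes was 10 without control 3 and 11 without control 2 or vitrification II 1 or vitrification II 2 or vitrification II 3.

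Among 19 integrins, laminins and matrix proteins, 13 were higher (68.4%, against 24.6% of all genes) and 0 lower, with a median of 1.58 log2. The number higher was 5 after median centring and 7 without control 2 and 8 without control 3 or vitrification II 3. ITGA5, an integrin subunit of the fibronectin receptor, stood at 1.51, 2.49 and 2.7 FPKM in the control libraries and at 18.4, 13.2 and 19.9 FPKM in vitrification II and rose by 1.87 ± 0.39 log2 (adjusted p = 0.000867). SDC1, the cell surface proteoglycan syndecan 1, stood at 2.66, 2.04 and 3.12 FPKM in the control libraries and at 21.4, 17 and 13.4 FPKM in vitrification II and rose by 1.71 ± 0.36 log2 (adjusted p = 0.000785). The cytoskeleton list had 12 of 35 higher (34.3%, against 24.6%) and 0 lower. After median centring 5 were higher, where 3.62% of all genes were, and without control 1 there was 1 lower. Its median of 0.59 turned to -0.29 after centring. VCL, vinculin, which anchors actin at adhesions, stood at 3.6, 2.61 and 1.86 FPKM in the control libraries and at 26.6, 19.4 and 24.2 FPKM in vitrification II and rose by 2.12 ± 0.37 log2 (adjusted p = 0.000382). ACTR2, a subunit of the actin-branching Arp2/3 complex, stood at 19.4, 12.1 and 13 FPKM in the control libraries and at 111, 139 and 114 FPKM in vitrification II and rose by 2.35 ± 0.35 log2 (adjusted p = 0.000217). ACTB, beta-actin itself, stood at 413, 589.5 and 407 FPKM in the control libraries and at 498, 859 and 749.9 FPKM in vitrification II with overlapping libraries and did not pass the test (adjusted p = 0.413).

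Cell cycle and splicing genes gave many calls that depended on the scaling. Of 49 replication and mitosis genes, 21 were higher (42.9%, against 24.6% of all genes) and 0 lower, and 4 were higher after median centring. The count was 6 without control 2, 7 without control 3, 10 without vitrification II 2, 12 without vitrification II 1 and 13 without vitrification II 3. MCM4, a subunit of the replicative helicase, stood at 6.37, 4.62 and 2.77 FPKM in the control libraries and at 34.8, 28.1 and 22.7 FPKM in vitrification II and rose by 1.81 ± 0.46 log2 (adjusted p = 0.00252). KIF11, the kinesin that separates spindle poles, stood at 0.959, 0.258 and 0.409 FPKM in the control libraries and at 4.6, 8.35 and 8.55 FPKM in vitrification II and rose by 1.77 ± 0.40 log2 (adjusted p = 0.00113). Of 39 splicing genes, 18 were higher (46.1%) and 0 lower, 3 after median centring, and 7 without control 2, 8 without control 3 or vitrification II 1 and 10 without vitrification II 2 or vitrification II 3. SF3B3, of the U2 snRNP, stood at 1.98, 0.754 and 2.07 FPKM in the control libraries and at 20.5, 16.6 and 22.1 FPKM in vitrification II and rose by 2.41 ± 0.42 log2 (adjusted p = 0.000424). EIF4G2 (ENSSSCG00000013405), an initiation scaffold that works without the cap-binding protein, stood at 23.4, 16.6 and 27.4 FPKM in the control libraries and at 268, 302 and 234 FPKM in vitrification II. All 3 vitrification II libraries lay far above control, and EIF4G2 rose by 2.92 ± 0.32 log2 (adjusted p = 3.64e-05). Translation factors had a smaller share called higher: of the 31 tested, 5 with EIF4G2 were higher (16.1%, against 24.6%) and 1 lower (1 higher and 1 lower after median centring), and the lower call ended without control 2, control 3 or vitrification II 2.

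Genes on both sides of apoptosis were higher. API5, an inhibitor of apoptosis, stood at 4.05, 0.737 and 2.2 FPKM in the control libraries and at 38.6, 21.4 and 32.2 FPKM in vitrification II and rose by 2.72 ± 0.44 log2 (adjusted p = 0.000331). BCL2L1, the survival protein BCL-X, stood at 6.9, 12.8 and 16.9 FPKM in the control libraries and at 37.4, 47.8 and 48.9 FPKM in vitrification II. It rose by 1.24 ± 0.37 log2 (adjusted p = 0.00333), a call that ended after median centring (0.132) and quantile normalization (0.0863). BID, which carries the death signal to mitochondria, stood at 5.84, 3.82 and 4.6 FPKM in the control libraries and at 33.9, 39.1 and 37.9 FPKM in vitrification II and rose by 2.11 ± 0.38 log2 (adjusted p = 0.000424). BAX, which opens the outer mitochondrial membrane, stood at 6.9, 4.73 and 2.66 FPKM in the control libraries and at 15.7, 18.2 and 7.7 FPKM in vitrification II. Its call (adjusted p = 0.0351) was lost under 9 of 21 alternatives, median centring among them (0.43). Of 11 anti-apoptotic genes, 6 were higher (54.5%, against 24.6% of all genes) and 0 lower, 2 after median centring. Of 17 pro-apoptotic genes, 6 were higher (35.3%) and 1 lower, 1 and 2 after median centring. Without control 2 or control 3 the pro-apoptotic list had 2 higher and 0 lower.

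The highest values of the interferon-induced genes ISG15 and OAS2 came from 1 library. ISG15, a ubiquitin-like protein induced by interferon, stood at 0, 0 and 0.172 FPKM in the control libraries and at 10.4, 415 and 1.29 FPKM in vitrification II. Vitrification II 2 was far above the other 2 libraries of its group, and the call (adjusted p = 0.0485) was lost under 13 of 21 alternatives. Leaving out that library gave an adjusted p of 0.213. OAS2, which senses double-stranded RNA, stood at 0.338, 0 and 0.088 FPKM in the control libraries and at 1.06, 6.83 and 1.15 FPKM in vitrification II (adjusted p = 0.0487), again highest in vitrification II 2, and lost its call under 11 of 21 alternatives. The interferon and chemokine list had 9 of 18 higher (50%, against 24.6% of all genes) and 0 lower, and 1 without control 2, 3 without control 3 and 5 without vitrification II 2. After median centring the only member higher was CCL1.

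Of the 14 genes called lower at 1000 FPKM or more, 11 belonged to the mitochondrial genome. Among the 13 protein genes of the mitochondrial genome, 11 were lower (against 1.09% of all genes) and 0 higher, with a median of -1.24 log2 against 0.62 for all genes. ATP6 (ENSSSCG00000018081), a subunit of ATP synthase, stood at 47346, 41156 and 39603 FPKM in the control libraries and at 12279, 16906 and 11744 FPKM in vitrification II and fell by 2.28 ± 0.33 log2 (adjusted p = 0.00336). COX2, of cytochrome c oxidase, stood at 42199.7, 36114 and 37215 FPKM in the control libraries and at 12607, 19528 and 11484 FPKM in vitrification II and fell by 2.06 ± 0.31 log2 (adjusted p = 0.00478). ND4, of complex I, stood at 20344, 12388 and 11900.2 FPKM in the control libraries and at 5970.03, 6326 and 4928 FPKM in vitrification II and fell by 1.96 ± 0.35 log2 (adjusted p = 0.0127). For all 13 genes the 3 vitrification II libraries lay below the 3 control libraries. Groups that did not overlap, in either direction, were found for 47.4% of all genes. ND1 and ND5, also of complex I, did not pass (adjusted p = 0.0979 and 0.248, relative change -1.50 ± 0.38 and -1.09 ± 0.29). The number lower was 13 after median centring, 1 with no filter on low values, and 5 without vitrification II 3 and 6 without control 2 or control 3. After quantile normalization it was 0, and the list's median was -0.36. That method gives the top ranks of every library the same values, and under it COX1 and ND4L turned to 0.10 and 0.15 log2 higher. The pairs ATP8 with ATP6 and ND4L with ND4 overlap on the genome, and how shared reads were divided is not given in the sources used here.

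Some nuclear genes of oxidative phosphorylation fell as well. Of 65 tested, 8 were lower (12.3%, against 1.09% of all genes) and 0 higher, and their median was -0.52 log2 against 0.62 for all genes. With the total set without the mitochondrial genes 14 were lower, after median centring 36 (where 7.03% of all genes were lower), and after quantile normalization 9, and 7 were lower under all 4 scalings. The count without scaling was 1 without control 2 or vitrification II 2, 2 without control 3 or vitrification II 1 or vitrification II 3 and 4 without vitrification I 1. NDUFB11 (ENSSSCG00000034487), an accessory subunit of complex I, stood at 224, 274 and 237 FPKM in the control libraries and at 81.3, 71.1 and 91 FPKM in vitrification II. Its groups were well apart, and it fell by 2.21 ± 0.31 log2 (adjusted p = 0.00303), a call kept under all 21 alternatives. CYC1, cytochrome c1 of complex III, stood at 281, 451 and 289.7 FPKM in the control libraries and at 223, 108 and 69.4 FPKM in vitrification II and fell by 2.10 ± 0.43 log2 (adjusted p = 0.0213). Without control 2 or vitrification II 3 the CYC1 call ended (0.102 and 0.103). ATP5PO, of the stalk of ATP synthase, stood at 1275, 1496 and 1473 FPKM in the control libraries and at 652, 663 and 586 FPKM in vitrification II. It fell by 1.78 ± 0.36 log2 (adjusted p = 0.029), and the call was lost under 6 of 21 alternatives.

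Some other mitochondrial proteins fell. CHCHD10 (ENSSSCG00000010073), of the intermembrane space, stood at 87.4, 112 and 79.8 FPKM in the control libraries and at 38.8, 19.3 and 14.3 FPKM in vitrification II and fell by 2.63 ± 0.40 log2 (adjusted p = 0.00334). TXN2 (ENSSSCG00000000144), the mitochondrial thioredoxin, stood at 84.1, 74 and 72.5 FPKM in the control libraries and at 24.3, 26.5 and 18.4 FPKM in vitrification II and fell by 2.33 ± 0.37 log2 (adjusted p = 0.00516). GLRX5 (ENSSSCG00000002496), which passes on iron-sulfur clusters in the matrix, stood at 55.8, 69.2 and 75.6 FPKM in the control libraries and at 23.4, 15.8 and 12.8 FPKM in vitrification II and fell by 2.54 ± 0.38 log2 (adjusted p = 0.0034). SLC25A5, a carrier that exchanges ADP for ATP across the inner membrane, stood at 758, 1148 and 841 FPKM in the control libraries and at 216, 327 and 368 FPKM in vitrification II and fell by 2.22 ± 0.36 log2 (adjusted p = 0.00641). The groups did not overlap for any of these 4, as for 47.4% of all genes, and each kept its call under all 21 alternatives. AUH, a matrix enzyme of leucine breakdown, stood at 63.4, 54.7 and 50.4 FPKM in the control libraries and at 17.5, 16.5 and 9.7 FPKM in vitrification II. It fell by 2.53 ± 0.47 log2 (adjusted p = 0.0102) and lost its call only with no filter on low values (0.063). Mitochondrial ribosomes and protein import gave few calls. Of 64 mitochondrial ribosomal protein genes, 2 were higher (3.12%, against 24.6% of all genes) and 1 lower (0 and 7 after median centring). Their median of 0.34 log2 lay below the 0.62 of all genes. That list had 0 calls without control 2 or control 3, 1 higher and 0 lower without vitrification II 1, 2 or 3, and 4 higher without vitrification I 3. Of 21 genes of protein import and the CHCHD family, 2 were higher (9.52%) and 1, CHCHD10, lower, and after median centring 1 was higher and 6 lower. The number higher was 1 without control 2 or control 3 or vitrification I 1 or vitrification II 1 or vitrification II 2 or vitrification II 3. TOMM40, the channel of protein import, stood at 4.05, 2.03 and 4.53 FPKM in the control libraries and at 40, 39.2 and 16.4 FPKM in vitrification II and rose by 2.18 ± 0.42 log2 (adjusted p = 0.00066). The antioxidant list had 4 of 32 higher (12.5%) and 3 lower (2 and 9 after median centring), and 2 higher without vitrification II 3. PRDX1 stood at 144, 94.6 and 104 FPKM in the control libraries and at 232, 227 and 206 FPKM in vitrification II and SOD1 at 25.4, 9.79 and 9.37 FPKM in the control libraries and at 27.8, 12.4 and 5.27 FPKM in vitrification II. Neither passed the test (adjusted p = 0.104 and 0.904), nor did SOD2 or GPX4 (0.169 and 0.884). PRDX1 passed in 4 of 21 alternatives, the fit of the 2 groups only among them (0.0195), and SOD2 in 2, 1 of which left out control 1 (0.021).

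**Figure D4:**
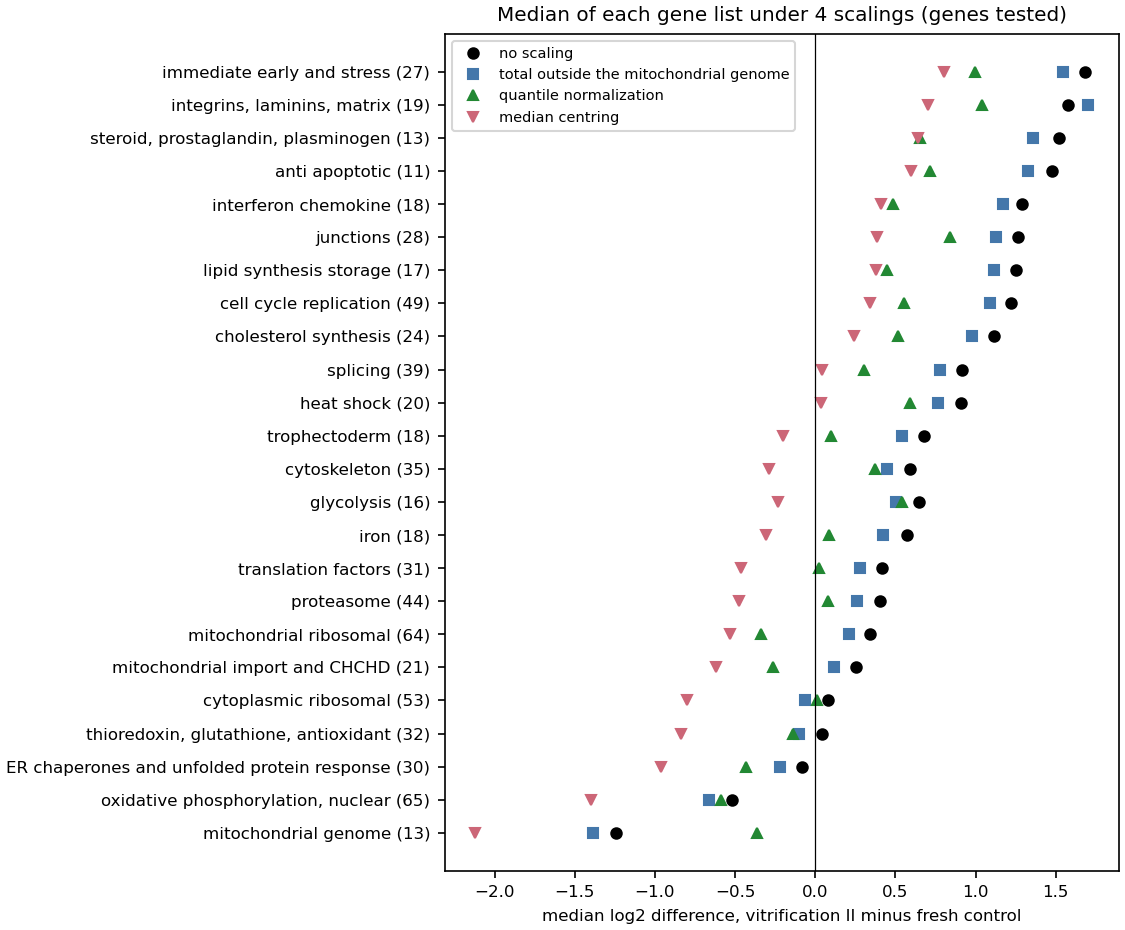
Median log2 difference, vitrification II minus fresh control, of 24 gene lists (number of genes tested in brackets) under no scaling (black circles), the total outside the mitochondrial genome (blue squares), quantile normalization (green triangles) and median centring (red triangles pointing down). From the top, the lists from immediate early and stress down to heat shock all lie above 0 under all 4. The ER chaperone, nuclear oxidative phosphorylation and mitochondrial genome lists lie below 0 under all 4.

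A few chaperones and folding enzymes of the ER were lower, and for those described here control 1 lay near or within the vitrification II libraries. SDF2L1 (ENSSSCG00000054186), a chaperone cofactor of the ER lumen, stood at 26, 209 and 261 FPKM in the control libraries and at 16.1, 21.9 and 14.1 FPKM in vitrification II. The 3 vitrification II libraries lay just below control 1 and far below the other 2 control libraries. SDF2L1 fell by 3.28 ± 0.62 log2 (adjusted p = 0.00739), and the call ended with no filter on low values (0.0756). PDIA3, a disulfide isomerase for glycoproteins, stood at 458, 2159.6 and 2117 FPKM in the control libraries and at 405, 465 and 322 FPKM in vitrification II, so that control 1 lay inside the range of vitrification II. It fell by 2.32 ± 0.48 log2 (adjusted p = 0.0183), and without control 2 or control 3 the call ended (0.103 and 0.0909). CRELD2, another ER stress-induced folding factor, stood at 25, 218 and 267 FPKM in the control libraries and at 38.8, 35.1 and 16.1 FPKM in vitrification II. Control 1 overlapped with vitrification II, and the CRELD2 call (adjusted p = 0.0403) was lost under 11 of 21 alternatives. HSPA5, the main ER chaperone BiP, stood at 121, 500.2 and 983 FPKM in the control libraries and at 250.2, 387 and 302 FPKM in vitrification II and was not called (adjusted p = 0.661), but was without control 1 (0.0303). Of 30 genes of the list, 4 were lower (13.3%, against 1.09% of all genes) and 5 higher (16.7%, below the 24.6% of all genes). The 5 higher were ATF3, ATF6, ERO1A, PPP1R15A and PPP1R15B, and the 4 lower were SDF2L1, PDIA3, CRELD2 and DNAJB9. The number lower was 1 without control 2 or control 3 or vitrification II 3, 2 without vitrification II 1 or vitrification II 2 and 13 without control 1, and the number higher was 1 without control 2, 2 without control 3 or vitrification II 3 and 3 without vitrification II 2. After median centring 8 were lower and 0 higher. Control 1 was also the library with the highest mitochondrial share of its group (43.9%), and the part of that library's make-up in the result was not tested.

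**Figure D5:**
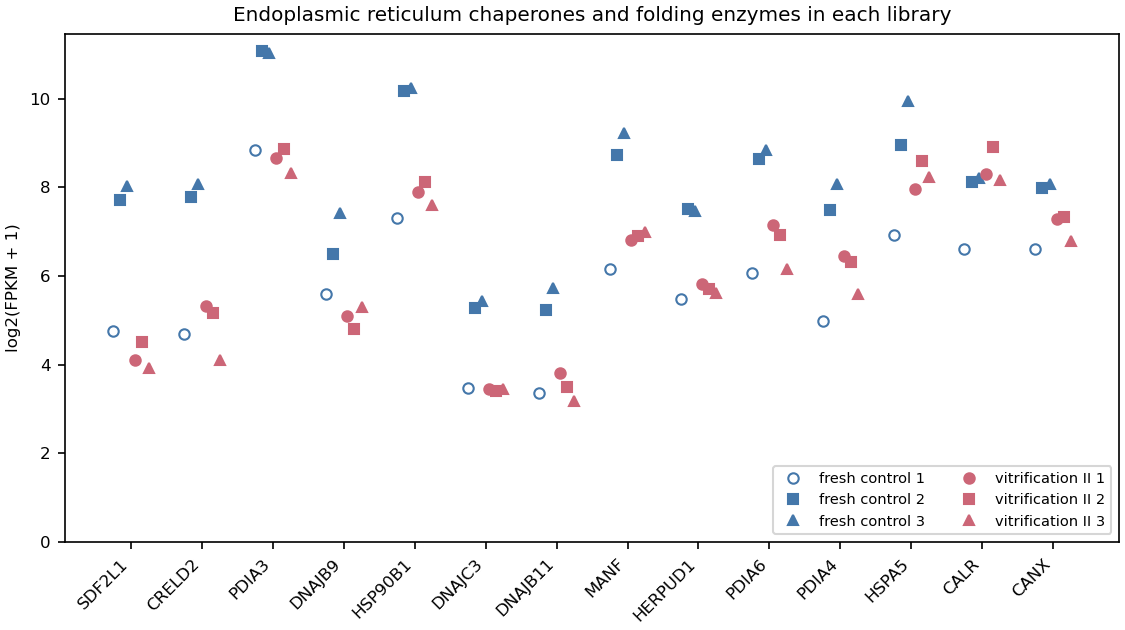
log2(FPKM + 1) of 14 ER chaperones and folding enzymes in each of the 6 libraries, chosen after their values were seen. Control 1 (open circle) lies with the vitrification II libraries (red) or below them for most genes, while control 2 and control 3 (blue square and triangle) lie above all vitrification II libraries for every gene plotted but CALR.

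Several single genes outside these groups fell. RGN, a calcium-binding protein of the cytosol, stood at 543, 1526 and 1461 FPKM in the control libraries and at 426, 82.3 and 205 FPKM in vitrification II, fell by 3.08 ± 0.55 log2 (adjusted p = 0.00616) and lost its call only with no filter (0.0652). FAAH, which degrades the endocannabinoid anandamide, stood at 15.8, 24.9 and 26.5 FPKM in the control libraries and at 7.33, 8.75 and 4.36 FPKM in vitrification II and fell by 2.22 ± 0.38 log2 (adjusted p = 0.0092). LRPAP1, a chaperone of lipoprotein receptors, stood at 91.4, 245 and 220.3 FPKM in the control libraries and at 64.1, 43.6 and 21 FPKM in vitrification II and fell by 2.72 ± 0.52 log2 (adjusted p = 0.0107). The LRPAP1 call ended without control 2 (0.0552) or vitrification II 3 (0.0531). MAEL, which guards the germline against transposons, stood at 11.4, 0.838 and 3.33 FPKM in the control libraries and at 0.119, 0 and 0.329 FPKM in vitrification II and fell by 2.64 ± 0.49 log2 (adjusted p = 0.00959), with control 1 the highest library.

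Each blastocyst lineage list held genes that were higher and factors that were not called. Several main factors had no identifier with their symbol and were not tested. These were POU5F1, SOX2, UTF1, DPPA3, TDGF1 and ZFP42 of the epiblast list and SOX17 of the hypoblast list. CDX2, the trophectoderm transcription factor, stood at 3.71, 3.31 and 1.64 FPKM in the control libraries and at 3.74, 4.99 and 1.57 FPKM in vitrification II, with overlapping libraries (adjusted p = 0.814). GATA3, of the same lineage, stood at 21.1, 42.6 and 31.4 FPKM in the control libraries and at 39.6, 52.3 and 24.5 FPKM in vitrification II (0.672) and the hypoblast factor GATA6 at 13.4, 18.6 and 10.2 FPKM in the control libraries and at 24.7, 15.3 and 20.6 FPKM in vitrification II (0.352). NANOG, of the epiblast, stood at 0.193, 0.658 and 0.952 FPKM in the control libraries and at 0.0501, 0.937 and 6.72 FPKM in vitrification II (0.503), with vitrification II 3 the highest and vitrification II 1 the lowest of all 6 libraries. TFAP2A, which also acts in the trophectoderm, stood at 13.7, 9.42 and 6.21 FPKM in the control libraries and at 50.4, 88.6 and 133 FPKM in vitrification II and rose by 2.42 ± 0.42 log2 (adjusted p = 0.000413). LIN28A, an RNA-binding protein of pluripotent cells, stood at 9.5, 6.44 and 6.96 FPKM in the control libraries and at 81.6, 45.7 and 24.5 FPKM in vitrification II. It rose by 1.81 ± 0.47 log2 (adjusted p = 0.00267), and the call ended after quantile normalization (0.0532). Of 18 trophectoderm genes, 6 were higher (33.3%, against 24.6% of all genes) and 0 lower, and 2 without control 1 and 3 without control 2 or control 3 or vitrification II 1 or vitrification II 2 or vitrification II 3. After median centring 1 was higher and 1 lower, and the list's median went from 0.68 to -0.20.

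Of 9 epiblast genes tested, 4 were higher (44.4%, against 24.6% of all genes) and 0 lower: LIN28A, SALL4, KLF4 and SPP1. SALL4, a zinc finger factor of pluripotent cells, stood at 0.715, 1.31 and 0.927 FPKM in the control libraries and at 12.2, 5.94 and 6.23 FPKM in vitrification II and rose by 1.53 ± 0.35 log2 (adjusted p = 0.00109), a call kept under all 21 alternatives. The number of epiblast genes higher was 2 after median centring, 1 after quantile normalization and 2 without control 2 or vitrification II 2. Of 9 hypoblast genes tested, 4 were also higher (44.4%, against 24.6% of all genes) and 0 lower. These were PDGFRA and the laminin chains LAMA1, LAMB1 and LAMC1, which are also in the list of integrins, laminins and matrix proteins. The hypoblast list's median was 0.50 log2, below the 0.62 of all genes, and that of the epiblast list was 0.91. LAMB1 stood at 3.53, 2.59 and 3.66 FPKM in the control libraries and at 21.7, 12 and 15.3 FPKM in vitrification II and rose by 1.38 ± 0.51 log2 (adjusted p = 0.0123), a call lost under 4 of 21 alternatives, among them median centring (0.113) and leaving out control 2 (0.0527). The number of hypoblast genes higher was 0 after median centring and after quantile normalization, and 1 without control 2 and 2 without control 1 or control 3 or vitrification II 3. The mean log2(FPKM + 1) of the listed markers was 1.32 to 1.42 in fresh control and 2.03 to 2.34 in vitrification II for the epiblast, 1.3 to 1.4 and 1.61 to 2.2 for the hypoblast, and 4.53 to 5.11 and 5.39 to 5.88 for the trophectoderm, without scaling. The groups did not overlap for any of the 3 means. The differences of the group means were 0.85, 0.53 and 0.77 log2, beside 0.62 for the median of all genes.

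KRT8 and KRT18, the keratin pair of simple epithelia, did not pass the test, and both calls depended on the settings. KRT8 had a relative change of 0.16 ± 0.46 (adjusted p = 0.22), was called higher after quantile normalization (0.00768), and had a fitted change of -0.09 log2 after median centring. KRT18 stood at 3846, 4806 and 4527 FPKM in the control libraries and at 2558, 2968 and 2197 FPKM in vitrification II, a relative change of -1.40 ± 0.35 (adjusted p = 0.117). It was called lower after median centring (0.0428), with array weights (0.011) and in the fit of the 2 groups only (0.0266). Libraries of the groups did not overlap for either keratin, as for 47.4% of all genes. Neither cold-inducible RNA-binding protein was called: CIRBP stood at 2.32, 7.18 and 5.54 FPKM in the control libraries and at 3.97, 4.52 and 9.56 FPKM in vitrification II and RBM3 at 186, 243 and 159.7 FPKM in the control libraries and at 190.3, 202 and 422 FPKM in vitrification II (adjusted p = 0.697 and 0.479). HSPA8, the constitutive heat shock cognate, stood at 914, 1493 and 1208 FPKM in the control libraries and at 2127, 1979 and 2374 FPKM in vitrification II. Its groups did not overlap, the adjusted p was 0.0663, and it passed in 5 of 21 alternatives, quantile normalization among them (0.0146). Of 20 heat shock genes tested, 7 were higher (35%, against 24.6% of all genes) and 0 lower (1 and 1 after median centring). The number higher was 3 without control 2 or vitrification II 3 and 4 without control 3. HSPA1A, HSPA1B, HSPA2 and HSP90AA1 of that list had no identifier with their symbol and were not tested. HSPH1, a nucleotide exchange factor of HSP70, stood at 27.5, 23.6 and 26.8 FPKM in the control libraries and at 63.2, 107 and 122 FPKM in vitrification II and rose by 1.20 ± 0.35 log2 (adjusted p = 0.00256), a call that ended after median centring (0.0775). Of 53 cytoplasmic ribosomal protein genes, 0 were called, with a median of 0.08 log2, below the 0.62 of all genes. The number lower was 4 after median centring and 2 without control 1. DNMT1, which copies DNA methylation, stood at 1.34, 0.785 and 0.889 FPKM in the control libraries and at 3.14, 9.93 and 2.86 FPKM in vitrification II (adjusted p = 0.0362, lost under 7 of 21 alternatives), and TET1, which oxidises it, at 9.35, 16.1 and 21.8 FPKM in the control libraries and at 28.6, 23.9 and 25.8 FPKM in vitrification II (0.139).

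A further contrast asked whether the levels in vitrification II also stood apart from the other vitrified groups, as vitrification II minus the mean of the vitrification and vitrification I group means. It shares the vitrification II libraries with the comparison above, so the 2 sets of values are not independent. It called 2974 genes (31.6%), 2707 higher (28.8%) and 267 lower (2.84%), and its median lay at 0.57 log2. After median centring 738 were higher and 1193 lower (38.2% higher, against 91.0% without scaling). Relative to that median, HSD17B1 was higher by 2.66 (adjusted p = 5.88e-05), KLF10 by 2.79 (adjusted p = 0.000102), DUSP1 by 2.99 (adjusted p = 8.89e-05), TXNRD1 by 3.45 (adjusted p = 8.97e-05) and PGAM1 by 2.46 (adjusted p = 0.000128). PTGS2 was not called in this contrast, at 0.55 (adjusted p = 0.0924). Its level was 203 and 326 FPKM in the 2 vitrification libraries and 213, 261 and 635 in the 3 of vitrification I, above every control library. TFAP2A, at -0.04 (adjusted p = 0.283), and LARP1, a regulator of ribosomal protein translation, at -0.19 (adjusted p = 0.397), were not called either. TXN2, which was lower than in fresh control, was higher than in the other vitrified groups, by 1.11 (adjusted p = 0.00249). CHCHD10 was not called against them, at 0.29 (adjusted p = 0.0796). ACTB was higher than in the other vitrified groups by 2.21 (adjusted p = 0.000785), and FTL by 1.99 (adjusted p = 0.00102), although neither was called against fresh control. Of the 13 mitochondrial genome genes 10 were lower than in the other vitrified groups, against 2.84% of all genes. Of 30 ER chaperone genes 14 were lower and 2 higher. SDF2L1 stood at -3.75 (adjusted p = 0.00124). Of 65 nuclear oxidative phosphorylation genes, 6 were higher in this contrast, a smaller share than the 28.8% of all genes, and 0 lower.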

How the data were processed

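Polyadenylated RNA of pig parthenogenetic blastocysts was sequenced after Smart-Seq2 amplification, per the labels' protocols. The authors deposited FPKM values, 1 for each of 31781 Ensembl identifiers and library. The tools in the submitters' processing notes are TopHat2 2.0.13, Cufflinks 2.2.1, FastQC and DESeq2, with no role given, and the genome build is not given in the sources used here. Of the 12 samples in the labels 11 had a column, and replicate 3 of the vitrification group was not analysed here, so that the planned 3 libraries of that group became 2. No 2 of the 11 libraries held identical values (0 of 55 pairs). Low FPKM values showed no steps of single reads, so no counts were recovered and no counting interval is given. Symbols came from a table of gene names and were found for 15347 identifiers and for 86.7% of the 9411 genes tested.

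Values were tested as log2(FPKM + 1), a scale that understates changes of low genes, with limma 3.58.1 in R 4.3.3. The model had 1 mean per group over all 11 libraries, a spread prior that depends on the mean level, and two-sided moderated tests with Benjamini-Hochberg adjustment over all genes tested (7 residual degrees of freedom). On simulated data for this comparison with 8945 genes unchanged or changed by known amounts, 79% of changes of 2 log2 and 95% of changes of 3 log2 were recovered, with 8 false calls among 182. The simulated libraries had independent noise and no overall shift between groups, and only genes with a mean log2 value above 2 were changed. These rates therefore do not carry over to the real libraries, where calls moved with the scaling. Library measures were compared by exact permutation tests over the 6 libraries. Alternatives were 3 scalings, a pseudocount of 0.1, no filter, a filter on mean FPKM of at least 1, no mean-dependent prior, array weights, a fit of the compared groups only, a replicate block, and leaving out each library.

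The comparison and its 49 gene lists were chosen with earlier results of these data known, and the set of genes called under all 4 scalings was defined after the values were seen. Genes named are called genes with a symbol, a mean of 5 FPKM or more in whichever group is higher and non-overlapping libraries (20 largest rises and 20 largest falls relative to the median of all genes), up to 4 called members of each list, the 10 most abundant nuclear genes, and a set fixed by name, of which TXN and FTH1 had no identifier. The text prints some of these 210 genes. A few named genes are not reported here. No sequence is printed, and genes with near-identical copies may share reads in an unknown way.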

Additional observations from a re-analysis of the deposited data

How the results depend on the processing

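With 2422 genes called against fresh control (2319 higher, 103 lower), the count was 1306 (1191 higher) with the total set outside the mitochondrial genome, 1003 (341 higher, 662 lower) after median centring and 676 (387 higher, 289 lower) after quantile normalization. It was 1419 (1332 higher) with no filter, where 24211 genes were tested, and 4954 (4536 higher, 418 lower) with array weights. Pseudocount, mean FPKM filter, prior and 2-group fit left it within 1.5 times (1877 to 2951). Leaving out 1 library gave 1017 to 2715 calls, 986 to 2590 higher and 31 to 159 lower. Against the other vitrified groups, 2974 calls became 1299, 1931 and 1749 under the 3 scalings and 1841 to 3369 without 1 library. Leaving out 1 library changed the mitochondrial share difference of -20.3 points to between -21.6 and -18.4, and that of the 50 most abundant genes of -18.2 to between -19.7 and -17.4. The number of genes at 1 FPKM, 1748 higher, ran from 1570.2 to 1984 higher. Of the 177 named genes that were called, only COX1 and ND4L changed sign, to 0.0955 and 0.155 log2 after quantile normalization, while 24 of the 33 not called took both signs, KRT8, GATA6 and FTL among them. The cause of these moves was not tested. Same-numbered libraries of the groups did not deviate together (correlations of -0.147, -0.132 and -0.0286). With 3 libraries per group these values cannot tell whether the numbers mark a shared batch or embryo pool. A replicate block gave 2203 calls, 2107 higher and 96 lower. Without counts, the depth that limits low genes is unknown.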
